A study of Triticum turgidum subsp. durum with 32 samples.

Results

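Durum wheat is a tetraploid that carries an A and a B genome, so most of its genes exist as a pair of homoeologues, one on an A chromosome and one on the B chromosome of the same number. The data described here are the transcripts whose sequence was placed at exactly 1 A-genome locus and 1 B-genome locus, both on the anchored pseudomolecules of the same chromosome number. A locus in the deposited table is a genomic interval, and its name is its position followed by the transcript that defined it. Of 150754 loci, 18815 names occurred at exactly 2 loci, 18811 of these at 1 A and 1 B locus, and 2862 on A and B pseudomolecules of the same number. A minimum of 3 reads in 2 or more of the 32 libraries was met by both loci in 980 of these pairs. Leaving out 4 pairs that the study lists in its own tables gave 976 pairs, or 1952 loci. The other 1882 pairs fell under the read minimum at the A locus alone (565), at the B locus alone (466) or at both (851).

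The libraries came from the third leaf, fully extended, of 4-week-old plants of the variety Kronos, grown under 16 h of light and 8 h of dark. Leaves were harvested 4 h into the light period. The *phyB*-null line carries premature stop codons in both *PHYB* homoeologues and the *phyC*-null line loss-of-function mutations in both *PHYC* homoeologues, and each was compared with its own wild-type sister line from the same mutagenized and backcrossed material. Mutant and wild type were compared in 2 experiments for each line, with 4 biological replicates of a genotype in each, so that the 32 libraries form 8 groups. The *PHYB* experiments followed each other in the same chamber, and the *PHYC* experiments used different chambers. P-values rest on the spread between these 4 libraries of a group, shared in part over the loci or pairs tested. Where the copies were compared, in level or response, *PHYB* experiment 1 and both *PHYC* experiments used only a shared spread. A pair's own spread had no weight there. Each genotype is a single induced mutant line, so an effect of the null alleles and of other mutations fixed in that line cannot be told apart. Because the *PHYB* alleles are premature stops, which need not change read counts, the reads of the targeted genes were not used to check the labels. Phytochromes are red and far-red light receptors that control flowering and the shade-avoidance response, in which stems and leaves elongate. Homoeologues arose by divergence of the A and B genome ancestors and, where both were retained, may be expressed alike or unequally, and may respond alike or differently to the same signal.

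Library totals ranged from 15961572 to 47695062 counted reads (median 25979236), of which the 976 pairs took 0.540% to 0.929% (median 0.663%). Among other leaf transcripts, 1 locus annotated as chlorophyll a-b binding protein had 9 to 100 reads per library (median 34). A protochlorophyllide reductase locus had 1 to 3181 (median 16.5). These are single loci and do not give the level of their gene families in the leaf. The *phyB*-null experiment 2 replicates 3 and 4 differed per locus by 1.42 times the counting noise, against 5.17 to 72.5 times for the other 47 of 48 pairs of libraries within a group, and were kept as separate samples. In whole-leaf RNA, fewer cells of a type and less RNA per cell cannot be told apart.

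The label of homoeologues held only in part by position. With each locus placed as a fraction of the length of its chromosome, the A and B loci of a pair lay a median of 0.0705 apart, and 398 of 976 pairs (40.8%) lay within 0.05. Among 1273 pairs of the same kind whose A and B loci lie on chromosomes of different number, the median was 0.295 and 152 (11.9%) lay within 0.05. The share within 0.05 was 56.5% on chromosome 3, 53.2% on 6, 47.8% on 2, 39.7% on 1, 36.8% on 7, 11.5% on 4 and 10.5% on 5. Pairs are therefore called A and B copies below, and the relative position is given for some of the single pairs. Where it is not given, similar positions are not implied. The pairs numbered 174, 186, 214, 96, 76, 94 and 136 on chromosomes 1 to 7. Most names (826) were contigs of one transcriptome assembly, 73 were isotigs or contigs, 53 Kukri contigs and 24 other sequences, and 23 of them had a description in the parts of the study's annotation used here. Most of these descriptions are of loci that the study called, so they are not an independent sample of functions, and the other pairs may have descriptions not used here.

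Reads were assigned to a copy only at positions where the A and B sequences differ, since reads that fit both were discarded by the authors. Most pairs were thinly covered: in the wild-type libraries the median pair had a mean of 5.13 normalized reads at the A copy and 7.38 at the B copy, 161 pairs had at least 20 at both copies and 633 had fewer than 5 at 1 copy or both. A normalized read is a read count divided by the size factor of its library within its experiment, so levels are compared within an experiment and A to B ratios within a library. Loci span introns as well, with a median of 1155.5 bases for A and 1407.5 for B copies. The spans of a pair were similar in 413 pairs and more than 2-fold apart in 288. Levels of the copies were therefore compared as reads per kb of locus.

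In the wild type the A and B copies of a pair often stood at unequal levels, and neither genome was higher in most pairs. The copy was called higher where edgeR's quasi-likelihood test gave an adjusted P of at most 0.01 and the ratio was at least 2-fold in the same direction in all 4 experiments. Of 844 pairs tested, 164 (19.4%) had the A copy higher and 184 (21.8%) the B copy higher, while the other 496 met neither call. Over all 3907 A and B pairs tested, placed on any chromosome or scaffold, the shares were 21.6% and 24.4%, so the shares among the 976 pairs lay slightly under the background. The median log2 A to B ratio per kb was -0.19 and -0.09 in the *PHYB* wild type of experiments 1 and 2, and -0.08 and -0.12 in the *PHYC* wild type. As reads without division by length, it was -0.37, -0.40, -0.29 and -0.40, and 167 pairs were A-higher and 240 B-higher. The quartiles per kb in the first of these groups lay at -1.61 and 1.32. The medians per kb of single libraries were -0.135 to 0.011 and -0.149 to -0.044 in the *PHYB* wild type of experiments 1 and 2. In the *PHYC* wild type they were -0.026 to 0.011 and -0.104 to -0.065. The group values of -0.19, -0.08 and -0.12 thus lay under the medians of all their libraries. Among the 161 pairs with at least 20 normalized reads at both copies, 31 were A-higher and 26 B-higher, and among the 76 of these with similar spans 13 and 14. Chromosome 3 held 32 A-higher and 61 B-higher of 197 tested pairs, with a median log2 ratio of -0.60. It had the most B-higher pairs and also the most tested pairs. Chromosome 7 held 21 and 28, and on chromosomes 1, 2, 4, 5 and 6 A-higher pairs were slightly more numerous. The small B excess over the 844 pairs thus rests mostly on chromosome 3. Whether it reflects expression or the reference sequence of that chromosome was not tested.

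**Figure D1:**
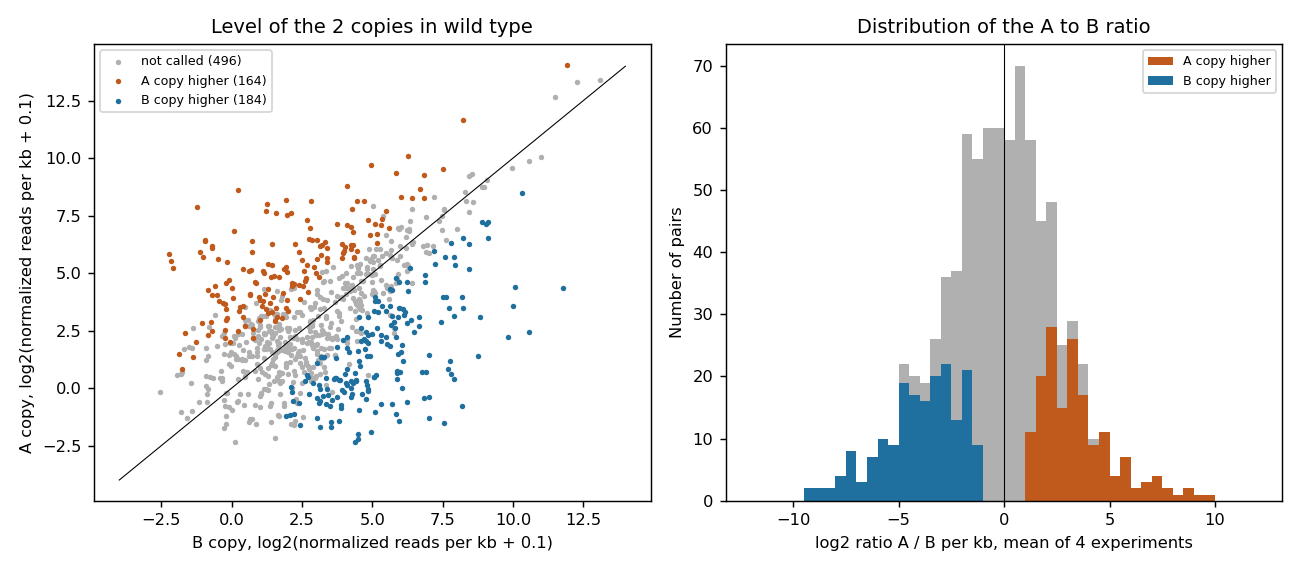
Left, level of the A copy against the B copy in wild type, each as log2 of normalized reads per kb plus 0.1, the mean over the 4 wild-type groups, for the 844 pairs tested. (line: equal levels), and right, number of pairs by the log2 A to B ratio (mean of 4 experiments, bins of 0.5). The 164 A-higher and 184 B-higher pairs form tails of like size around an undecided centre of 496 pairs.

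The largest A excess among pairs with at least 20 normalized reads at each copy was in td-k45_contig_80835 (1A:583935-584489 and 1B:799860-801162), close to the start of the short arms. In *PHYB* wild type experiment 1 its A copy had 259, 284, 357 and 368 normalized reads and its B copy 17.1, 19.7, 22.7 and 26.2. The A copy carried 85.5 to 95.4% of the reads of the pair over the 16 wild-type libraries, so the copies did not overlap, and the mean log2 ratio per kb was 4.64.

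The other 3 pairs named by size had the A copy higher in every wild-type library. For td-k35_contig_52195 on 7A and 7B the A copy held 81.00 to 94.6% of the reads of the pair, for td-k35_contig_61089 on 1A and 1B 85.5 to 95.9%, and for td-k51_contig_12903 on 1A and 1B 91.8 to 97.98%. Their mean log2 ratios per kb were 3.82, 3.65 and 3.50. The A copy of td-k35_contig_61089 also fell in *phyB*-null.

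In the opposite direction, td-k63_contig_4184 on 1A and 1B had the largest B excess by the same rule. Its B copy had 1026, 1123, 1240.4 and 1828 normalized reads in *PHYB* wild type experiment 1, and its A copy 59.3, 84.8, 88.3 and 138. The A copy held 2.05 to 8.57% of the reads over the 16 wild-type libraries, and the mean log2 ratio per kb was -3.66. The next 3 pairs all lie on chromosomes 3A and 3B: td-k45_contig_3577_td-k25_contig_4610, td-k21_contig_6856 and td-k45_contig_13804 had A shares of 8.75 to 17.9%, 1.71 to 10.5% and 6.63 to 13.2%. Their mean log2 ratios per kb were -3.46, -3.31 and -2.62.

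At the extreme, 5 A-higher pairs had a B copy at or under 1 normalized read in every wild-type group, and 9 B-higher pairs had an A copy at that level. In td-k41_contig_38857 on 2A and 2B the A copy had 703 to 999 normalized reads in the *PHYB* wild type and the B copy 0 to 2.65. In td-k55_contig_5923_td-k61_contig_6017, annotated as a subunit of mitochondrial cytochrome c oxidase, the last enzyme of the respiratory chain, the A copy had 252 to 423 and the B copy 0 to 1.42. Both transcripts were read almost entirely from the A locus.

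The reverse was seen in contig83932 on 7A and 7B, with 136 to 384 normalized reads at the B copy and 0 to 2.41 at the A copy, and in KukriC1001_12 on 1A and 1B, with 152 to 221 and 0 to 1.32 in the same 8 libraries. Reads were mapped to the bread wheat variety Chinese Spring, so a copy that is silent and one that is absent or diverged in Kronos cannot be told apart.

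A few pairs dominated the reads. The pair td-k41_contig_603 (1A:116272427-116273629 and 1B:103866736-103868011) took 9.66% to 14.9% of the reads of all 976 pairs in *PHYB* wild type experiment 1. Its A copy had 16099, 23229, 23548 and 23593 normalized reads there and its B copy 4322, 5049, 5505 and 5601. The A copy held 76.7 to 84.2% of the pair in the 16 wild-type libraries. Of the 4 most abundant pairs, td-k63_contig_67999 on 2A and 2B was the most unequal, with 6886 to 12154 normalized reads at the B copy and 18.7 to 26.4 at the A copy in the same group, at relative positions 0.902 apart. By contrast the copies of td-k55_contig_887 on 3A and 3B were within 2-fold per kb in each experiment's wild type, at log2 ratios of 0.26, 0.64, -0.62 and 0.18.

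In *phyB*-null, 53 pairs had at least 1 copy called, and in 0 pairs were the copies called in opposite directions (0 also by DESeq2 and at an unadjusted P under 0.05 in edgeR). A copy is called high-confidence where it was changed in the same direction in both experiments at an adjusted P of at most 0.01, in edgeR's quasi-likelihood test fitted on the whole table. Of 1567 copies tested (762 A and 805 B), 73 (4.66%) were high-confidence, against 5.01% of all 78478 loci tested. Higher in *phyB*-null were 51 copies (3.25%, against 2.13% of all loci), and lower 22 (1.40%, against 2.89%). In 20 of the 53 pairs, both copies were called (13 higher and 7 lower), and in 33 exactly 1 copy, the A copy in 17 and the B copy in 16. Such pair counts, and the 0 opposite pairs, are not given here for other A and B pairs. They are therefore not shown to be particular to these pairs. Of 645 pairs with both copies tested in both experiments, 69.3% had the same sign of mean change in both copies. The share was 66.2% in 764 pairs from chromosomes of different number. Among pairs with a locus on a scaffold it was 70.8% of 657 of the same number and 63.1% of 766 of different number. The 69.3% thus lay within the range of these other pairs.

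The changes of the copies were more alike where reads were plentiful. Across the 645 pairs Pearson's r between the log2 fold changes of the A and B copies was 0.638 (Spearman's rho 0.508), and the median absolute difference of the copies was 0.41. In the 177 pairs with a mean of at least 20 reads in each copy r was 0.876 (rho 0.779), 81.4% had the same sign and the median difference was 0.23. The correlation was 0.690 in the 285 pairs at similar relative positions, 0.593 in the other 360, and 0.516 in 764 pairs from chromosomes of different number. These are descriptions across pairs, which share the libraries and, within a pair, sequence.

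**Figure D2:**
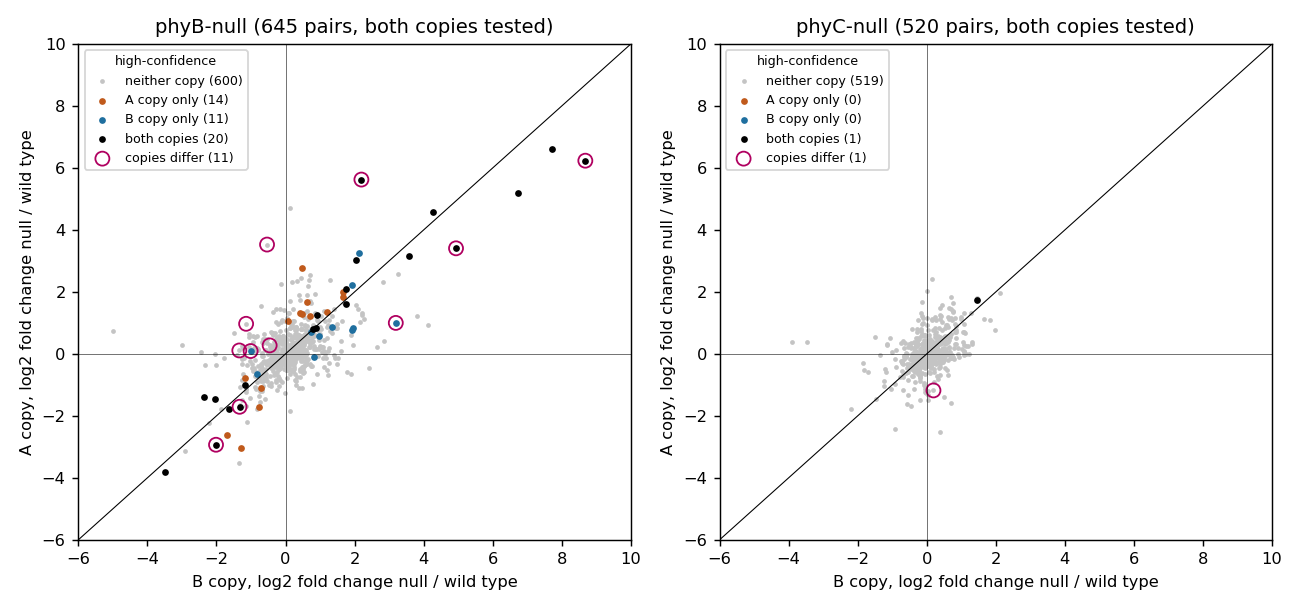
Log2 fold change of the A copy against that of the B copy, null against wild type, as the mean of both experiments, for pairs with both copies tested in both experiments (colours: copies that were high-confidence, rings: pairs whose copies were called to differ). In phyB-null (645 pairs) the 20 pairs with both copies called all have changes of the same sign, while phyC-null (520 pairs) has 1 such pair.

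The largest joint increases in *phyB*-null belonged to 3 annotated pairs, 2 of which follow here and the third, an F-box pair, among the copies that differed. The pair td-k41_contig_80365 (6A:195824508-195825472 and 6B:187100327-187100722, relative positions 0.0250 apart) is annotated as an IBH1-like transcription factor, a helix-loop-helix protein type that in Arabidopsis and rice restrains cell elongation. In experiment 2 its A copy had 1.76, 2.91, 10.9 and 13.3 normalized reads in the wild type and 736, 765, 776 and 833 in *phyB*-null, a log2 fold change of 6.84 ± 0.34 (SE, adjusted P = 7.7e-07 by edgeR). The B copy had 0, 0.971, 1.21 and 1.21 and 132, 134, 138 and 174, a change of 7.31 ± 0.33 (adjusted P = 3.5e-07 by edgeR). The genotypes did not overlap at either copy. Among the *PHYB* libraries this B copy reached the minimum of 3 reads only in *phyB*-null, where it is high. Its rise is therefore not independent of how the pairs were chosen.

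In experiment 1 the A copy of td-k41_contig_80365 went from 1.32, 1.38, 2.96 and 4.26 to 82.2, 182, 209 and 396, while the B copy read 0 in all 4 libraries of the wild type and had 17.3, 31.8, 33.1 and 51.5 in *phyB*-null. With 3 reads over the 4 wild-type libraries as the floor, the B copy was at least 34.96-fold higher. No difference between the copies in response was called (adjusted P = 0.62 and 0.83). In the *PHYC* libraries the pair was near 0, with at most 2.18 normalized reads at the A copy.

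The pair td-k55_contig_20832 on 6A and 6B, annotated as a DNA binding protein, rose in the same way. Its A copy had 0, 1.97, 2.64 and 2.76 normalized reads in the wild type and 42.8, 55.9, 80.9 and 114 in *phyB*-null of experiment 1, and its B copy 0, 0, 1.32 and 1.42 and 26.05, 37.8, 58.99 and 82.6. The log2 fold changes in experiment 1 were 5.20 ± 0.50 for A and 6.11 ± 0.66 for B (SE, edgeR adjusted P = 3.5e-05 and 8.1e-05), and in experiment 2 5.15 ± 0.27 and 7.34 ± 0.45. Every *phyB*-null library lay above every wild-type library at both copies. In experiment 1 the B copy reached the read minimum only in *phyB*-null, so its rise there depends in part on that filter. In *phyC*-null only the A copy had reads enough to test, with log2 fold changes of -0.34 ± 0.87 and -0.48 ± 0.92, neither past the threshold.

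The pair td-k41_contig_41624 on 4A and 4B, listed by the study without a description and named after its values were seen, rose to a like degree in both copies. In experiment 1 the A copy went from 8.53, 18.5, 34.5 and 112 to 528, 939.6, 1245 and 1686 normalized reads and the B copy from 2.84, 9.23, 17.9 and 70.05 to 139, 315, 438 and 637. The log2 fold changes were 4.58 ± 0.58 and 3.81 ± 0.64 in experiment 1, and 4.59 ± 0.44 and 4.73 ± 0.60 in experiment 2 (SE), and both copies were high-confidence by edgeR. Its loci lie 0.540 of a chromosome apart in relative position.

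**Figure D3:**
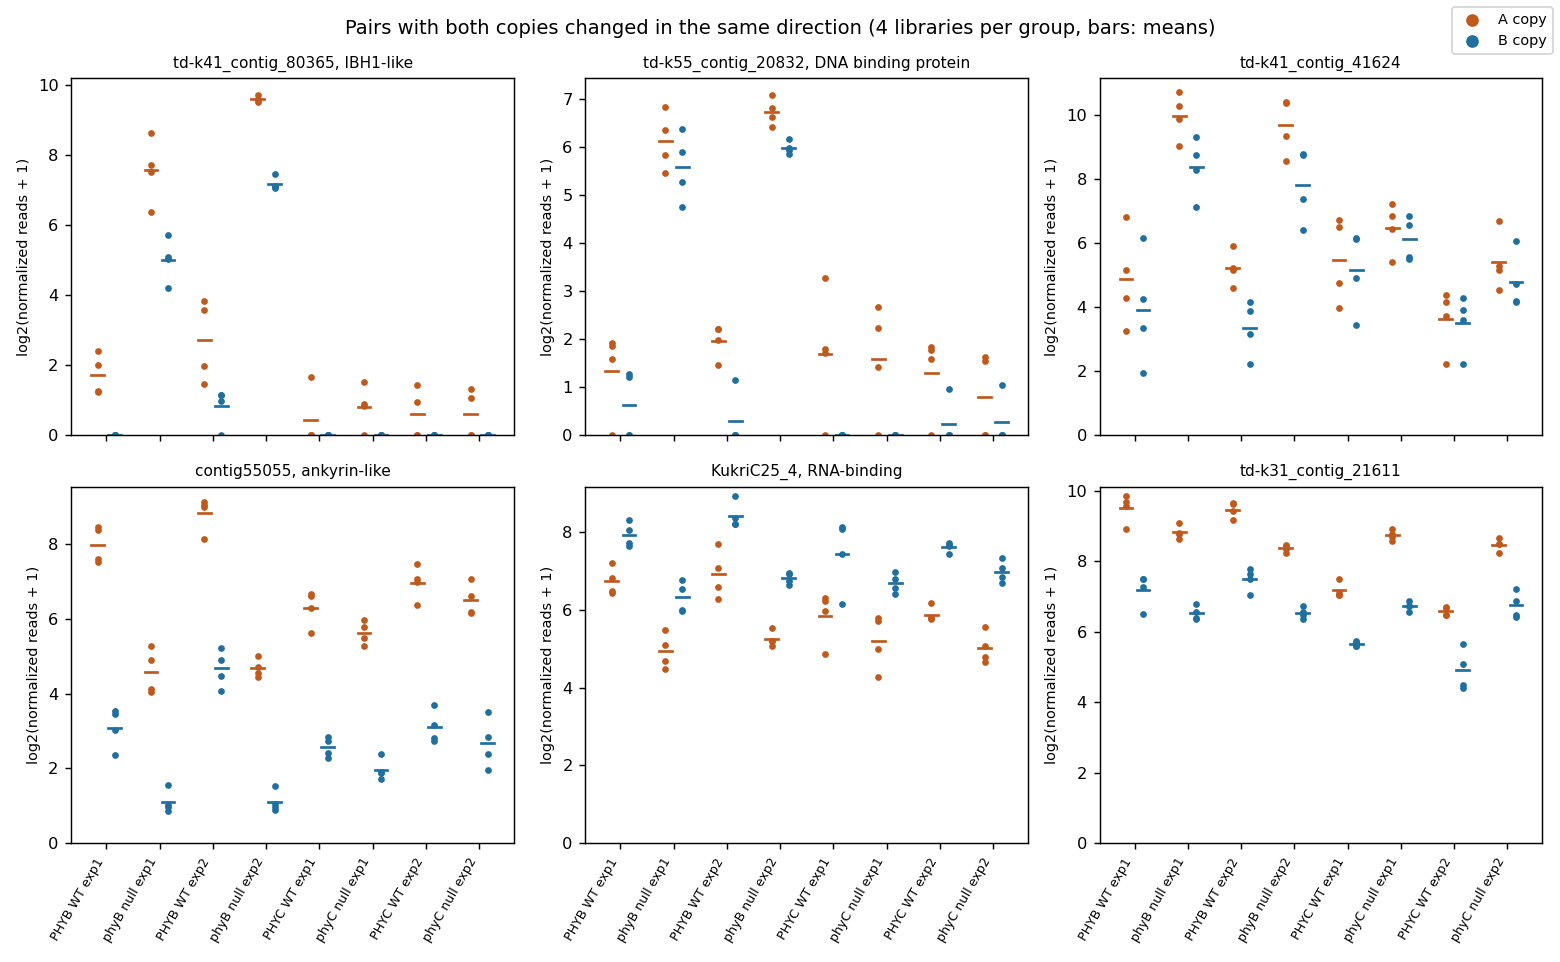
Normalized reads (log2 of reads plus 1) of the A copy (orange) and B copy (blue) in each of the 32 libraries for 6 pairs, with bars at group means. In the 3 upper pairs every phyB-null library lies above every wild-type library of its experiment in both copies, in the first 2 lower pairs below, and in td-k31_contig_21611 the phyC-null libraries lie above their wild type in both copies.

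Among the joint decreases, contig55055 (5A:32899747-32905453 and 5B:55413207-55417662, 0.0194 apart), annotated as an ankyrin-like protein, a repeat class that mediates protein contacts, fell most. Its A copy had 183, 191, 329.8 and 349.7 normalized reads in the wild type and 15.4, 16.5, 28.99 and 37.8 in *phyB*-null of experiment 1, and its B copy 4.14, 7.11, 9.87 and 10.5 and 0.822, 0.972, 1.02 and 1.93. The log2 fold changes were -3.37 ± 0.31 and -2.69 ± 0.50 (SE, edgeR adjusted P = 2.6e-05 and 0.0031), and -4.23 ± 0.24 and -4.28 ± 0.44 in experiment 2. The copies differed in level, the A copy holding 91.7 to 98.8% of the wild-type reads, but no difference in response was called (adjusted P = 0.88 and 0.96). The B call was lost under DESeq2 and without *phyB*-null experiment 1 replicate 3 or replicate 4. Under another low-count filter (edgeR's filterByExpr) the B copy was left out, so its call could not be checked there.

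The pair KukriC25_4 on 3A and 3B, annotated as an RNA-binding protein 24-B-like sequence, fell by about the same amount at both copies. In experiment 1 its A copy went from 85.7, 88.3, 112 and 148 to 21.2, 24.7, 33.6 and 43.7 normalized reads and its B copy from 200.1, 212, 266 and 317 to 61.7, 63.7, 92.6 and 109. The log2 fold changes of A and B were -1.82 ± 0.25 and -1.60 ± 0.21 in experiment 1, and -1.77 ± 0.29 and -1.65 ± 0.18 in experiment 2. Genotypes did not overlap at either copy. In *phyC*-null the changes were -0.65 ± 0.37 and -0.94 ± 0.34 in experiment 1, and -0.86 ± 0.22 and -0.63 ± 0.15 in experiment 2, none past the threshold of 0.01.

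The third pair of this group, td-k25_contig_3120 on 3A and 3B, fell in both copies and fell further in the A copy. Its A copy had 205, 301, 351 and 671 normalized reads in wild type and 51.5, 59.2, 65.6 and 66.1 in *phyB*-null of experiment 1, and its B copy 385, 585, 704 and 1173 and 191, 203, 258 and 261. The difference of the log2 fold changes, A minus B, was -0.96 ± 0.15 and -0.86 ± 0.14 in the experiments (SE, edgeR adjusted P = 4.2e-08 and 0.00018). The high-confidence call of the B copy was lost under another low-count filter (edgeR's filterByExpr) and when 1 of 6 libraries was left out, namely *PHYB* wild type experiment 2 replicate 2 or 4 or any *phyB*-null library of experiment 2, and that of the A copy without 3 of these (*phyB*-null experiment 2 replicates 1, 3 and 4). In *phyC*-null of experiment 1 its B copy instead rose, from 205, 220.3, 413 and 598 to 1457, 2405, 2791 and 4038 (log2 fold change 2.89 ± 0.38, adjusted P = 0.0012). In experiment 2 the B change was 0.77 ± 0.36 (adjusted P = 0.35), so it was not a high-confidence call.

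Both copies were called in other pairs too. The pair td-k51_contig_16470 on 2A and 2B, annotated as Pi-ta, a disease resistance protein of rice with a nucleotide-binding site and leucine-rich repeats, had mean log2 fold changes of 1.61 for A and 1.75 for B. The pair td-k45_contig_22039_td-k21_contig_19641, annotated as the resistance protein RGA4 of the same structural class, changed by 2.09 and 1.76. Both lie near the start of 2A and 2B, the former at 2A:945569-953189 and 2B:2446609-2455980 and the latter at 2A:878189-884379 and 2B:2606790-2610993, and both rose. The pair td-k55_contig_2152_td-k45_contig_1373_td-k21_contig_1737 on 6A and 6B, annotated as endoglucanase 11, a cell-wall glucan hydrolase, fell by 1.71 and 1.33 on the log2 scale. The Pi-ta and endoglucanase pairs were named after their values were seen. The most abundant pair, td-k41_contig_603, rose by 0.84 at A and 0.87 at B, with no difference between the copies called. Over the 20 pairs the larger change was in the B copy in 11, and the median absolute difference between the copies was 0.41.

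Where exactly 1 copy was called, the fitted change of the other usually had the same sign. Of these 33 pairs, the other copy was not tested in 8, and in 23 of the remaining 25 it had the same sign. A call at 1 copy alone is not evidence of a difference between copies, and that difference was called in 2 of the 33, td-k51_contig_17983 and td-k41_contig_12298. In td-k35_contig_61089 the A copy, called, had a mean log2 fold change of -1.11 and the uncalled B copy of -0.71. The pair td-k25_contig_70367, annotated as a cell wall protein gp1-like sequence, had -3.04 at the called A copy and -1.29 at the B copy. In td-k55_contig_5923_td-k61_contig_6017 the A copy, which carries nearly all reads, rose by 1.03, from 252, 264, 301 and 301 to 523, 546, 643 and 673 normalized reads in experiment 1, while the B copy was too low to test. A solute carrier 40-like pair, td-k31_contig_64382, rose by 1.71 at the B copy, and its A copy was not tested either. This pair and td-k25_contig_70367 were named after their values were seen.

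The response to the loss of *PHYB* was called to differ between the copies in 11 of 930 pairs (1.18%), against 1.06% of all 4242 pairs tested. Here the A and B counts of each library entered a single edgeR model with a term for each library, and the interaction of copy and genotype had to pass in both experiments in the same direction. The A copy had the more positive change in 6 pairs and the B copy in 5. Both copies were high-confidence in 5 of the 11, 1 copy in 2 and neither in 4. Within single experiments 34 of 941 and 19 of 951 pairs passed, and 161 and 163 had an unadjusted P under 0.05. In experiment 1, as in both *PHYC* experiments, the test used 1 spread shared by all pairs. A robust fit, added after the data were seen, called 13 pairs, and DESeq2 called 4.

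By size, with a pair mean of at least 20 normalized reads, the first was td-k35_contig_14468_td-k45_contig_27583 (3A:173166758-173167292 and 3B:719956457-719958074, 0.00613 apart), annotated as a BX8-like glucosyltransferase, an enzyme that in maize adds glucose to the benzoxazinoid defence compounds DIBOA and DIMBOA. Its A copy was near 0 in the *PHYB* wild type, with 0, 0, 1.38 and 2.64 normalized reads in experiment 1 and 0, 3.63, 3.88 and 4.41 in experiment 2. In *phyB*-null it had 78.3, 89.7, 100.1 and 104 and 72.6, 85.5, 97.8 and 103. The A genotypes did not overlap in either experiment.

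The B copy of td-k35_contig_14468_td-k45_contig_27583 was already expressed in the wild type, with 38.4, 44.4, 50.1 and 56.6 normalized reads in experiment 1, and rose to 133, 207, 218 and 228 in *phyB*-null. Log2 fold changes were 6.46 ± 0.42 and 4.79 ± 0.36 for A and 2.05 ± 0.20 and 2.35 ± 0.17 for B. The difference, A minus B, was 4.53 ± 0.54 and 2.46 ± 0.41 (SE, edgeR adjusted P = 2.0e-14 and 0.00017), and was called when any single library was left out. The A share of the pair went from 0 to 10.8% to 28.2 to 37.02%. The copies stood at unequal levels in the *PHYC* wild type as well, with 1.21 to 23.97 at A and 69.1 to 143 at B.

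The pair td-k41_contig_43863 (2A:29589204-29592617 and 2B:217787166-217790157), annotated as an F-box protein with leucine-rich repeats, a class of substrate receptors of ubiquitin ligases, differed the other way. Its A copy had 16.6, 17.1, 19.8 and 23.7 normalized reads in the wild type and 1035, 1309, 1312 and 1509.7 in *phyB*-null of experiment 1, and its B copy 0.987, 1.42, 3.96 and 4.14 and 757, 1006, 1165 and 1517. Both copies rose, without overlap, to a like level from unequal levels. The log2 fold change was 6.04 ± 0.18 at A and 8.72 ± 0.35 at B in experiment 1, and 6.43 ± 0.22 and 8.64 ± 0.24 in experiment 2. The difference was -2.67 ± 0.47 and -2.21 ± 0.34 (SE, edgeR adjusted P = 1.8e-06 and 3.7e-05), and no single library removed the call. The loci lie 0.515 of a chromosome apart in relative position.

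In td-k41_contig_72490 on 3A and 3B, annotated as a VQ motif protein, a family that binds WRKY transcription factors, both copies rose and the B copy more. Its A copy went from 1.38, 2.96, 19.9 and 34.3 to 146, 164, 166 and 203 normalized reads in experiment 1 and its B copy from 5.52, 6.91, 22.7 and 40.9 to 570.1, 621, 663 and 784. The difference, A minus B, was -1.55 ± 0.35 and -1.47 ± 0.34 (SE, edgeR adjusted P = 0.00049 and 0.0066). It was lost under DESeq2, when only pairs with a mean of at least 20 reads were fitted, and without any 1 of 8 of the 16 libraries (*PHYB* wild type experiment 1 replicates 2 and 4, *PHYB* wild type experiment 2 replicates 1, 3 and 4, and *phyB*-null experiment 2 replicates 1, 3 and 4). In *phyC*-null the same pair had log2 fold changes of 1.48 ± 0.32 at A and 2.21 ± 0.25 at B in experiment 1, the B change past the threshold there (adjusted P = 0.0004) and not in experiment 2 (adjusted P = 0.011).

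In 3 further pairs the A to B ratio was higher in *phyB*-null with fewer reads at the B copy. The B copy of td-k51_contig_84237 on 1A and 1B went from 809.5, 895, 952 and 1261 to 343, 352, 440.4 and 442 normalized reads in experiment 1, with no overlap, while its A copy went from 5.27, 8.28, 14.8 and 36.96 to 15.5, 18.3, 18.9 and 44.8, with overlap. The B change passed the threshold in experiment 1 only (-1.31 ± 0.16 and -0.97 ± 0.23, edgeR adjusted P = 0.00017 and 0.011). The difference of the copies was 2.03 ± 0.26 and 2.26 ± 0.32 (SE, edgeR adjusted P = 4.6e-12 and 1.3e-05) and was lost under DESeq2. The A copy held only 0.308 to 2.85% of the wild-type reads.

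The pair td-k51_contig_17983 on 5A and 5B had copies of like level in the wild type. In experiment 1 its A copy had 90.8, 96.2, 99.3 and 101 normalized reads in the wild type and 96.2, 96.5, 110.4 and 117 in *phyB*-null, and its B copy 61.2, 67.2, 78.2 and 78.6 and 30.9, 35.4, 35.9 and 46.3. The genotypes overlapped at A and not at B, where the change was high-confidence (-0.92 ± 0.18 and -1.10 ± 0.17). The difference was 1.01 ± 0.21 and 1.17 ± 0.23 (SE, edgeR adjusted P = 0.00014 and 0.0011). It was lost without *phyB*-null experiment 1 replicate 2.

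In td-k41_contig_62829 the A locus is at the very start of 4A and the B locus inside 4B (4A:88534-89728 and 4B:216076836-216078082). The A copy had 273 to 574 normalized reads in the *PHYB* wild type and 336 to 509 in *phyB*-null, and the B copy 27.6 to 182 and 28.2 to 68.8. The B groups overlapped in experiment 1, where 1 wild-type library read 27.6, and not in experiment 2, and neither copy was high-confidence. The difference was 1.36 ± 0.18 and 1.57 ± 0.21, called by the main test and lost under DESeq2 and under the robust fit.

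The remaining 5 pairs are td-k25_contig_3120 above, td-k55_contig_2152_td-k45_contig_1373_td-k21_contig_1737, td-k41_contig_12298, td-k35_contig_31907 and td-k55_contig_20191. In the endoglucanase pair td-k55_contig_2152_td-k45_contig_1373_td-k21_contig_1737 both copies fell and the A copy slightly further, with a difference of -0.45 ± 0.11 and -0.37 ± 0.09. In td-k41_contig_12298, annotated as a heavy metal transport and detoxification protein, the B copy, high-confidence, rose from 1.38, 2.64, 2.84 and 5.92 to 23.8, 33.6, 35.7 and 52.5 normalized reads in experiment 1. The A copy had 3.96, 9.66, 9.95 and 16.8 in the wild type and 19.3, 23.03, 24.4 and 30.1 in *phyB*-null, without a call. The difference was -2.14 ± 0.56 and -2.22 ± 0.48. The pair td-k35_contig_31907 was the thinnest, with at most 3.62 normalized reads at the A copy in the wild type, and 4.82 to 26.4 and 12.2 to 54.7 in *phyB*-null of the experiments. In td-k55_contig_20191 on 3A and 3B the A share was 31.7 to 32.5% in the wild type and 36.9 to 43.4% in *phyB*-null of experiment 1, and 23.8 to 29.2% and 41.5 to 44.5% in experiment 2, without overlap. Its difference was 0.47 ± 0.12 and 0.99 ± 0.13. These 4 pairs other than td-k25_contig_3120 were named after their values were seen.

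**Figure D4:**
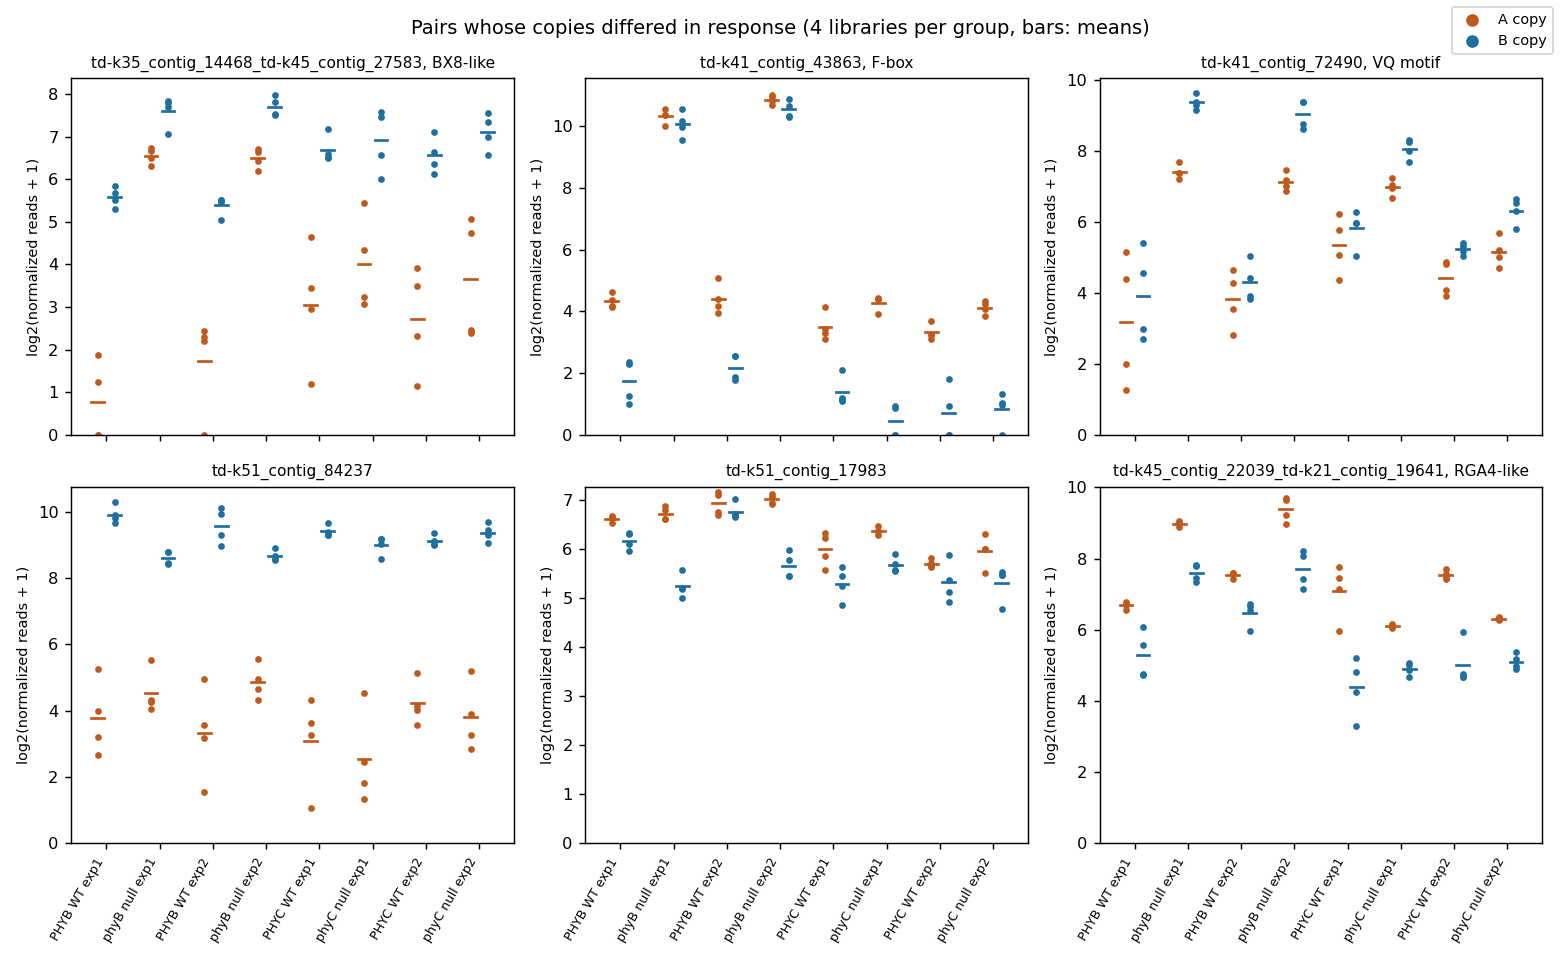
Normalized reads (log2 of reads plus 1) of the A copy (orange) and B copy (blue) in each of the 32 libraries, with bars at group means, for 5 pairs called to differ in phyB-null and the 1 pair called to differ in phyC-null. The A copy of the BX8-like pair moves from near 0 to the 72.6 to 104 reads of phyB-null, while its B copy rises from a wild-type level of 32.05 to 56.6.

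Summed over all 976 pairs, the A copies took a larger share of the reads in *phyB*-null. The A share was 45.2% ± 0.997 and 45.2% ± 1.72 (SD, n = 4) in the *PHYB* wild type of experiments 1 and 2, and 51.04% ± 0.626 and 51.3% ± 0.141 in *phyB*-null, without overlap. In the *PHYC* lines it was 44.7% ± 2.70 and 45.2% ± 0.719 in the wild type, and 44.9% ± 0.978 and 44.7% ± 1.67 in *phyC*-null, with overlap. The A-rich pair td-k41_contig_603 took 9.66% to 14.9% of these reads in *PHYB* wild type experiment 1 and 20.8% to 23.4% in *phyB*-null. Without it the A share was 39.3% to 39.9% in the wild type and 41.8% to 42.8% in *phyB*-null of experiment 1, and 38.2% to 41.5% and 43.04% to 43.8% in experiment 2. Without the 4 most abundant pairs the groups overlapped, at 37.2% to 38.5% and 37.6% to 38.7% in experiment 1 and 35.9% to 38.3% and 38.1% to 38.9% in experiment 2. Without the pairs that had a copy called in *phyB*-null they did not overlap, at 38.1% to 38.5% and 40.7% to 41.6% in experiment 1 and 37.1% to 40.97% and 42.1% to 42.7% in experiment 2. No test was made of these shares, and they are not set against the A share of other A and B pairs. The median log2 A to B ratio per kb was -0.19 and -0.06 in the wild type and *phyB*-null of experiment 1, and -0.09 and -0.12 in those of experiment 2. The medians of single libraries overlapped, at -0.135 to 0.011 and -0.100 to -0.031 in experiment 1. In experiment 2 they also overlapped, at -0.149 to -0.044 and -0.162 to -0.049.

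**Figure D5:**
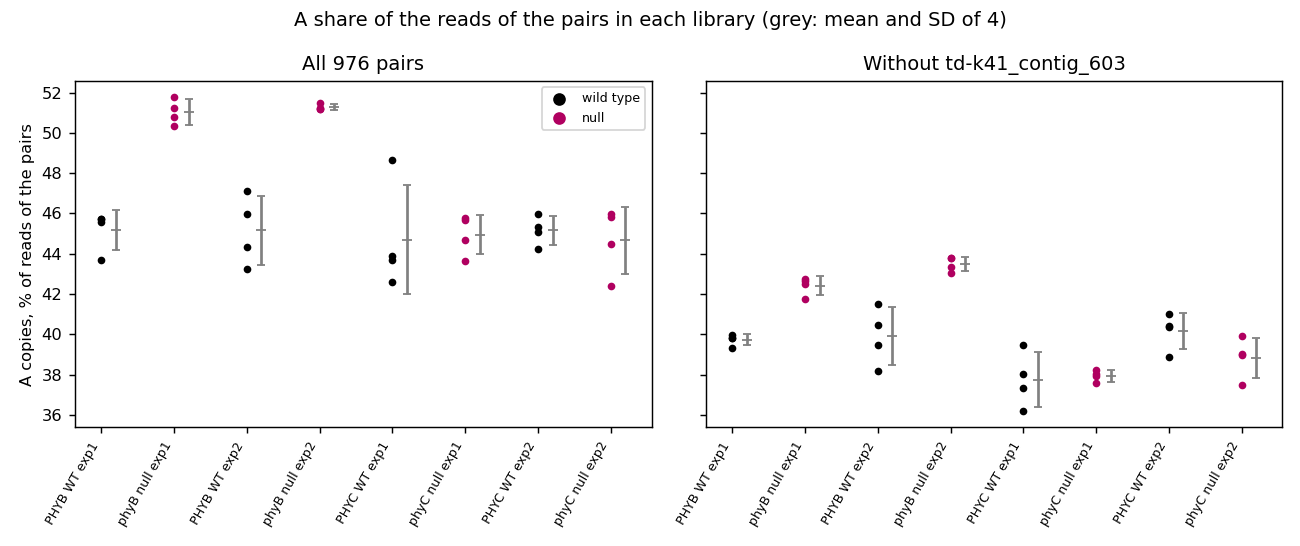
Share of the reads of the 976 pairs that fell on A copies (percent) in each library (points, black for wild type and magenta for null, grey bars for the mean and SD of 4), with all pairs (left) and without td-k41_contig_603 (right). The phyB-null libraries lie above their wild type in both panels, with a smaller gap without that pair, and the phyC-null libraries overlap with theirs.

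Few copies responded to the loss of *PHYC*. Of 1374 copies tested (661 A and 713 B), 2 (0.146%) were high-confidence, against 0.472% of all 72601 loci. Both rose, against 0.245% of all loci, and 0 fell, against 0.227% of all loci. DESeq2 called 3 copies that fell, and edgeR gave 38 lower copies at an unadjusted P under 0.05 in both experiments. Exactly 1 copy was called in 0 pairs by edgeR and in 4 by DESeq2, with 60 at the same unadjusted P. The sign of the change was the same in both copies in 66.3% of 520 pairs, with r = 0.392 (rho 0.423) across pairs, and in 77.1% of the 175 pairs with at least 20 reads in each copy, with r = 0.637 (rho 0.651). The 607 pairs from chromosomes of different number had the same sign in 61.9% and r = 0.381 (rho 0.309). Among pairs with a locus on a scaffold, r was 0.418 in 528 of the same number and 0.401 in 584 of different number. Their signs were the same in 65.2% and 63.2%. The r of 0.392 thus lay within the range of these other pairs. The sign was the same in 64.6% of 226 pairs at similar relative positions and in 67.7% of the other 294. In a single experiment 91 and 82 pairs had an unadjusted P under 0.05 for a difference between copies.

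The 2 copies are those of td-k31_contig_21611 (1A:230667975-230670561 and 1B:261554437-261556994, 0.0422 apart), for which no annotation was used here. In experiment 1 its A copy had 131, 132, 136 and 179.8 normalized reads in the *PHYC* wild type and 380.0, 412, 434 and 482 in *phyC*-null, and its B copy 46.9, 47.1, 51.8 and 52.2 and 93.6, 105, 106 and 116. In experiment 2 the A copy had 87.2, 88.5, 100.1 and 103 and 302, 359, 360.1 and 405, and the B copy 20.01, 21.4, 33.1 and 49.7 and 84.3, 88.4, 116 and 147. The genotypes did not overlap at either copy.

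The log2 fold changes of td-k31_contig_21611 were 1.56 ± 0.16 and 1.90 ± 0.12 at A and 1.09 ± 0.17 and 1.81 ± 0.28 at B (SE, edgeR adjusted P = 0.00017, 2.9e-06, 0.0035 and 0.004). The B call was lost when 1 of 10 of the 16 libraries was left out (*PHYC* wild type experiment 1 replicate 4, any *phyC*-null library of experiment 1, *PHYC* wild type experiment 2 replicates 1, 2 and 3, and *phyC*-null experiment 2 replicates 2 and 4), while the A call held in all 16. In *phyB*-null the fitted changes of the same pair were of the opposite sign, at -0.72 ± 0.18 and -1.10 ± 0.12 at A and -0.70 ± 0.21 and -0.97 ± 0.17 at B. The A change passed the threshold there only in experiment 2 (adjusted P = 0.017 and 0.00019), so it was not high-confidence.

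A difference between the copies in response to the loss of *PHYC* was called in 1 of 859 pairs (0.116%), against 0.654% of all 3978 pairs. Single experiments gave 19 of 898 and 6 of 892. The pair is the RGA4-like td-k45_contig_22039_td-k21_contig_19641, whose A copy had 61.02, 141, 175 and 214 normalized reads in the *PHYC* wild type and 65.4, 68.4, 69.8 and 70.2 in *phyC*-null of experiment 1, and 172, 174, 190.1 and 209.5 and 76.6, 77.3, 78.9 and 80.7 in experiment 2. Its B copy had 8.72, 17.8, 27.1 and 35.9 and 24.6, 28.5, 30.9 and 32.7 in experiment 1, and 24.2, 24.6, 26.02 and 60.6 and 28.7, 30.4, 35.4 and 40.2 in experiment 2. The A groups did not overlap in experiment 2 and overlapped through 1 wild-type library in experiment 1, and the B groups overlapped in both.

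For td-k45_contig_22039_td-k21_contig_19641 the difference, A minus B, was -1.49 ± 0.32 and -1.29 ± 0.27 (SE, edgeR adjusted P = 0.00047 and 0.00024). It was lost under DESeq2 and without *PHYC* wild type experiment 2 replicate 3. Neither copy was high-confidence in *phyC*-null. In *phyB*-null both copies rose instead, from 93.8, 102, 105 and 108 to 476, 497, 507 and 534 at A and from 25.6, 26.2, 46.4 and 65.9 to 161, 176, 219 and 225 at B in experiment 1. The difference of the copies there was 0.06 ± 0.20 and 0.61 ± 0.18, not called.

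The effects of both mutants on the A to B ratio were compared directly in 1 model of all 32 libraries. They differed in 16 of the 976 pairs (1.64%), against 1.75% of all 4461 pairs, with the *phyB*-null effect higher in 9 and lower in 7. Of these 16, 7 were among the 11 called in *phyB*-null. Without the 8 libraries numbered replicate 3 the count was 10. Each effect is taken against the wild type of its own line, so the contrast alone does not show which group moved. In 6 of the 16 pairs the ratio also differed between the wild-type lines. The RGA4-like td-k45_contig_22039_td-k21_contig_19641 is among these 6. In td-k41_contig_43863 the *phyB*-null minus *phyC*-null difference of the log2 ratio was -4.37 ± 0.83 (SE, edgeR quasi-likelihood test, adjusted P = 0.00018), in td-k35_contig_14468_td-k45_contig_27583 2.92 ± 0.55 (SE, edgeR quasi-likelihood test, adjusted P = 0.00017) and in td-k45_contig_22039_td-k21_contig_19641 1.72 ± 0.26 (SE, edgeR quasi-likelihood test, adjusted P = 1.6e-06).

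Named by size, 2 pairs lie close together on 5A and 5B. The pair td-k55_contig_68098_td-k41_contig_15503_td-k51_contig_20564 had 0 to 8.82 normalized reads at the A copy and 36.2 to 168 at the B copy in the *PHYB* wild type, and a difference of 3.54 ± 0.74 (SE, edgeR quasi-likelihood test, adjusted P = 0.00083). The pair td-k55_contig_39780 had 1.97 to 14.2 and 29.02 to 176, and a difference of 2.70 ± 0.58 (SE, edgeR quasi-likelihood test, adjusted P = 0.0014). In both the A copies are thin, and neither pair was called within a mutant. These differences also take in both wild types, so they do not show which group moved. For the first pair a library stood apart from the rest of its group in *PHYB* wild type experiment 1, *phyB*-null experiment 2 and *PHYC* wild type experiment 2.

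The *PHYB* and *PHYC* wild types are separate sister lines grown in separate experiments, and the A to B ratio differed between them in 47 of 976 pairs (4.82%), against 4.19% of all 4461 pairs. The A to B ratio was higher in the *PHYC* wild type in 23 and in the *PHYB* wild type in 24. Without the 8 libraries numbered replicate 2 the count was 30. Line and growth experiment cannot be told apart in this comparison. The largest differences by the naming rule were in td-k21_contig_61270, td-k31_contig_74565, contig59273 and td-k21_contig_70266.

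In td-k31_contig_74565 on 5A and 5B the A copy held 17.1 to 79.2% of the pair in the *PHYB* wild type and 83.5 to 95.97% in the *PHYC* wild type, without overlap, a log2 difference of 3.12 ± 0.32 (SE, edgeR quasi-likelihood test, adjusted P = 5.3e-12). In contig59273, annotated as a yakA-like serine/threonine kinase, the A shares were 81.7 to 98.4% in the *PHYB* and at least 97.1% in the *PHYC* wild type, with slight overlap, a difference of 2.79 ± 0.40 (SE, edgeR quasi-likelihood test, adjusted P = 1.9e-07). In td-k21_contig_61270 on 3A and 3B the A shares were 0 to 4.93% and 0 to 1.19%, a difference of -3.20 ± 0.61 (SE, edgeR quasi-likelihood test, adjusted P = 8.0e-05). The A copy there had at most 9.67 normalized reads in any wild-type library. In td-k21_contig_70266 on 6A and 6B the A shares overlapped, at 1.39 to 15.2% and 0 to 11.8%, a difference of -2.26 ± 0.57 (SE, edgeR quasi-likelihood test, adjusted P = 0.0048). The RGA4-like pair td-k45_contig_22039_td-k21_contig_19641 also differed between the wild types, by 1.43 ± 0.19 (SE, edgeR quasi-likelihood test, adjusted P = 2.7e-08), with A shares of 61.5 to 80.9% and 73.96 to 89.6%.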

How the data were processed

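RNA of 32 leaf samples was sequenced as short single-end reads without strand information, so overlapping and antisense transcripts cannot be told apart. The authors placed transcripts separately on the A and B chromosome arms of Chinese Spring, merged overlapping regions into loci, mapped the reads with GSNAP and deposited raw counts per locus from HTSeq, made only from reads of high mapping quality. Reads that fit both copies were dropped, so the counts rest on positions where the copies differ, and a locus spans introns.

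From the deposited counts, loci reaching 3 reads in 2 or more libraries of an experiment were fitted with edgeR 4.0.16 (R 4.3.3, quasi-likelihood test, median-of-ratios factors), null against wild type, with Benjamini-Hochberg adjustment over all loci tested and an adjusted P threshold of 0.01. The copies were compared over all 4461 A and B pairs in a second edgeR model with a term for each library, a copy term and its interaction with genotype, the copy term with locus length as offset for levels. Mutants, and wild-type lines, were compared in 1 such model of 32 libraries. Ratios for medians used a pseudocount of 0.5 reads. Spans were called similar where the longer was under 5/4 of the shorter. The scripts were tested on simulated counts.

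Alternatives were TMM factors, other filters, DESeq2 1.42.0, thresholds, a replicate block and leaving out each library. Named pairs are those with the largest changes in each class and a read minimum, or the highest counts, and those named outside this rule are marked. The members, lists and annotation were chosen with earlier results of these data known. Sequences of the loci were not used here.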

Additional observations from a re-analysis of the deposited data

Results flagged for a closer look

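Of 144 group-and-measure sets of 4 libraries examined, 10 had 1 library standing apart from the other 3, and chance alone picks about 1 in 20 such sets. The values here are the gap of that library to its nearest neighbour as a part of the range of its group. For the A share of all pairs it was 0.926 in *PHYB* wild type experiment 1 and 0.833 in *phyB*-null experiment 2, and for the median log2 A to B ratio per kb 0.936 in *phyC*-null experiment 2. For the log2 A to B ratio of single pairs it was 1 in td-k41_contig_80365 (*PHYC* wild type experiment 1, where 3 libraries were equal), 0.889 in td-k55_contig_20832 (*PHYC* wild type experiment 2), 0.842 in td-k35_contig_14468_td-k45_contig_27583 (*PHYB* wild type experiment 2) and 0.961 in td-k41_contig_72490 (*phyC*-null experiment 1). For td-k55_contig_68098_td-k41_contig_15503_td-k51_contig_20564 it was 0.846 in *PHYB* wild type experiment 1, 0.832 in *phyB*-null experiment 2 and 0.883 in *PHYC* wild type experiment 2.

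The effect on the log2 A to B ratio differed between the mutants (*phyB*-null minus *phyC*-null, edgeR contrast over 32 libraries) in 16 pairs. It was higher in *phyB*-null in td-k35_contig_31907 (4.95), td-k55_contig_68098_td-k41_contig_15503_td-k51_contig_20564 (3.54), td-k35_contig_14468_td-k45_contig_27583 (2.92), td-k55_contig_39780 (2.70), td-k51_contig_84237 (2.52), td-k31_contig_54005 (2.49), td-k45_contig_22039_td-k21_contig_19641 (1.72), td-k41_contig_62829 (1.47) and td-k51_contig_17983 (0.96). It was lower in td-k41_contig_43863 (-4.37), td-k41_contig_74809 (-2.22), td-k45_contig_79892 (-2.02), td-k35_contig_48105 (-1.87), td-k51_contig_12224 (-1.49), CL6148Contig1 (-1.22) and td-k55_contig_2152_td-k45_contig_1373_td-k21_contig_1737 (-0.57). In 6 of the 16 pairs the ratio also differed between the wild-type lines.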

How the results depend on the processing

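In *phyB*-null the 20 pairs with both copies high-confidence became 31 at an adjusted P of 0.05, 13 with a replicate block and 15 to 21 when 1 library was left out. Of these 20, 12 were among the 398 pairs at relative positions within 0.05 (a split added after the data were seen). The 33 pairs with exactly 1 copy called became 57 without a low-count filter, 67 with DESeq2, 97 at 0.05 and 22 to 44 without 1 library. The 51 higher copies became 96 at 0.05, 32 with the block and 37 to 60 without 1 library, and the 22 lower copies 34 without a filter, 40 with DESeq2, 63 at 0.05 and 15 to 29 without 1 library. The 11 pairs called to differ became 4 with DESeq2, 24 at 0.05 and 8 to 14 without 1 library. Without *phyB*-null experiment 2 replicate 3 or replicate 4, which are unusually alike, both copies were called in 15 or 16 pairs and 9 or 8 pairs differed.

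In *phyC*-null the 1 pair with both copies called became 0 with the block and 0 to 1 without 1 library. The 0 pairs with exactly 1 copy became 5 without a filter, 4 with DESeq2, 6 at 0.05, 1 with the block and 0 to 1 without 1 library. The 2 higher copies became 5 at 0.05, 1 with the block and 1 to 3 without 1 library, and the 0 lower copies 4 without a filter, 3 with DESeq2, 3 at 0.05 and 0 to 2 without 1 library. The 1 pair called to differ became 0 with DESeq2, 2 at 0.05 and 0 to 1 without 1 library.

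For levels, the 164 A-higher and 184 B-higher pairs were 19.4% and 21.8% of the 844 tested. Among the 344 tested pairs with similar spans they were 64 and 66 (18.6% and 19.2%). Among the 298 tested pairs with a mean of at least 20 reads they were 82 and 107 (27.5% and 35.9%). Without 1 replicate they became 142 to 147 and 166 to 174. The median log2 ratios of the 4 wild-type groups, in the order of the report, were -0.37, -0.40, -0.29 and -0.40 without length and -0.020, 0.019, 0.053 and 0.0049 with a pseudocount of 5, which turned the sign of the last 3. With a mean of at least 20 reads they were -0.29, -0.28 and -0.28 in *PHYB* experiment 2 and *PHYC* experiments 1 and 2. The 16 pairs that differed between the mutants became 29 at 0.05, 10 with DESeq2, 11 with a robust fit and 10 to 17 without 1 replicate, and the 47 that differed between the wild-type lines became 88 at 0.05 and 30 to 39 without 1 replicate. The cause of these shifts was not tested.

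Replicate numbers did not pair the libraries: deviations of same-numbered libraries correlated at -0.17 to 0.07. With the block 22 pairs had exactly 1 copy called in *phyB*-null and 8 differed, and the calls of the B copies of contig55055, td-k25_contig_3120 and, in *phyC*-null, td-k31_contig_21611 and of the difference in td-k51_contig_17983 were lost. Of the values of named pairs under the alternatives, 0 reversed, 446 stayed on their side of the threshold and 43 fell short of it. Depth is a limit: 633 of the 976 pairs had a copy under 5 normalized reads.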
